A study of Rattus norvegicus with 12 samples.

Results

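Transcripts of 10 genes of the glucocorticoid and corticotropin-releasing hormone stress axis were examined in the hippocampus of blast-exposed rats. The genes were taken by symbol from a table of counts for 17494 genes, and all 10 were found there and passed the filter on low counts. They are the corticosteroid receptors Nr3c1 and Nr3c2, the receptor co-chaperones Fkbp5 and Fkbp4, the peptide system Crh, Crhr1 and Crhbp, the glucocorticoid-induced genes Sgk1 and Tsc22d3, and the steroid-activating enzyme gene Hsd11b1. The rule that picks them uses their names and none of their values, but the list was drawn up with earlier results of these libraries known.

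The 12 animals were wild-type male Long Evans rats that all received 3 blast exposures, 1 a day, at 10 weeks of age, and were sacrificed 29 weeks later. The 6 blast-boldine rats ate chow holding boldine, an alkaloid of the boldo tree, at 500 mg/kg from the weeks after the blasts until sacrifice. The 6 blast-controls ate the chow without boldine. No unexposed library was used, so the comparison reads boldine against no boldine within blast exposure, and it holds no value for blast itself. The sample labels call the tissue brain and the study's methods call it hippocampus, with 1 library of total RNA, depleted of ribosomal RNA, from each rat. In the weeks before sacrifice the study ran object recognition and fear conditioning on rats of both groups. The statistics given for fear training, which used footshocks, correspond to all rats of the study, and object recognition was reported for fewer. Which of the sequenced rats were in the object recognition results was not worked out here.

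Corticosterone, the main glucocorticoid of the rat, reaches the brain through the blood and binds a receptor of high affinity, the mineralocorticoid receptor encoded by Nr3c2, and one of lower affinity, the glucocorticoid receptor encoded by Nr3c1. The hippocampus holds both at high levels and takes part in the feedback that restrains the hypothalamic-pituitary-adrenal axis. Corticotropin-releasing hormone (CRH), which drives that axis from the hypothalamus, is also made by some hippocampal interneurons, where it acts locally as a transmitter.

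Library totals were 10148474 to 40850106 counts for 11 rats (median 17720959), and 74008 for blast-control rat 6. A count of 3 was the lowest level read as detected. It was worth 47.5 CPM (normalized counts scaled to 1000000 a library) in rat 6 and 0.0658 to 0.307 CPM elsewhere, and such limits reflect counting error alone. The library of rat 6 held 0 counts of Crh, Crhr1, Crhbp and Tsc22d3, 1 of Sgk1, 5 of Nr3c2, 9 of Nr3c1, 10 of Fkbp4, 15 of Fkbp5 and 24 of Hsd11b1. It was kept in the first test of each gene, and the fits were repeated without it. The libraries also fell into sets of 6 that crossed the groups. The library names carry suffixes from S1 to S6, each used on 2 libraries, and only the 4 splits into sets in which rat numbers rise with the suffix were examined. The one used here accounted for 95.6% of the first principal component, which held 66.9% of the variance of 11 libraries. Set A held blast-controls 1, 7 and 9 and blast-boldine rats 20, 32 and 35. Set B held blast-controls 4, 5 and 6 and blast-boldine rats 12, 17 and 19. Treatment accounted for 1.57% of the same component. What the sets are was not given in the sources used here, and since the split was picked by the data, differences between the sets are described without a test.

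Sgk1, Tsc22d3 and Fkbp5 are textbook targets of the activated glucocorticoid receptor, and promoter sequence of each is shown here. The 250 bases before an annotated transcription start are given 5′ to 3′ on the gene's strand, from RefSeq on build GRCr8, with capitals marking GC boxes, TATA boxes and the core of the cAMP response element, each searched on both strands by the letters given after the sequences.
Fkbp5, chr20:6543556-6543805, minus strand: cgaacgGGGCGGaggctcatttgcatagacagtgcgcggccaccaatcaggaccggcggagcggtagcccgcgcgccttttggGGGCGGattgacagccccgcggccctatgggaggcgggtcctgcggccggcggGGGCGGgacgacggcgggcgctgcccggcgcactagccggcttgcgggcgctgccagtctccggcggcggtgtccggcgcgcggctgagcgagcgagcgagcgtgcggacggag
Sgk1, chr1:24804832-24805081, minus strand: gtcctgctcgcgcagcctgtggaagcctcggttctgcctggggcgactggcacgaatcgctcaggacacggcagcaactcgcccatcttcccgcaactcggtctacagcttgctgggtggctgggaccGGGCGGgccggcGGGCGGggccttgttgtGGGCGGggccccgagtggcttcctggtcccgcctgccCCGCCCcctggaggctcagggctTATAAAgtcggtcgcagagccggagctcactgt
Tsc22d3, chrX:109010035-109010284, minus strand: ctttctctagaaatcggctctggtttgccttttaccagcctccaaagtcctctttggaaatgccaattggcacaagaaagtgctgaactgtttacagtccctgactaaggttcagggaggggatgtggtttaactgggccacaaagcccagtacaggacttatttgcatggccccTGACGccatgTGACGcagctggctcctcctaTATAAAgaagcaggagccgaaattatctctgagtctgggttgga

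The Fkbp5 stretch holds 3 GC boxes and no TATA box, with 76.0% of its bases G or C. The Sgk1 stretch holds 4 GC boxes and 1 TATA box, and the Tsc22d3 stretch holds 1 TATA box and 2 copies of the cAMP response core. RefSeq gives 3 starts each for Sgk1 and Tsc22d3, of which the one with the lowest coordinates is shown, and which of them the counted exons belong to was not worked out. Over windows of 300 bases, reaching 50 bases past the start, 7 of the 10 genes had 13 windows in the reference table. None of the 13 held the glucocorticoid response element in its full form (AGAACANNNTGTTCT, in 0.0149% of 33469 rat promoter windows) or a single arm of it (AGAACA, in 20.7% of them). GC boxes (GGGCGG) stood in 10 of the 13, against 33.1% of all windows. TATA boxes (TATAAA) stood in 4, against 14.2%, and the cAMP response core (TGACG) in 2, those of Crhbp and Tsc22d3, against 21.2%. A match is a run of letters and no measured site, and no match says only that those letters are not within this window.

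None of the 10 genes differed between blast-boldine and blast-control rats at an adjusted p under 0.05 (edgeR quasi-likelihood test over 12325 genes, all 10 adjusted p = 1.0), and none did at an unadjusted p under 0.05, where 1.07% of all genes tested passed. DESeq2 and limma-voom likewise called 0 of the 10 at either threshold, with 0.542% and 0.933% of all genes under the unadjusted one, and so did edgeR without rat 6, with 1.40%. Where a single gene is tested on its own, p is that of an exact permutation test over the rats within their library sets, without rat 6. Over all genes no tool called any at an adjusted p under 0.05, and edgeR called 132 at an unadjusted p under 0.05, DESeq2 85 and limma-voom 115. Log2 fold changes of the 10 genes, given throughout as blast-boldine over blast-control, had a median of -0.08, against 0.00 over all genes, and a median size of 0.091, against 0.099. The values lay above 0 for 3 genes and below 0 for 7. Crh stood apart from the other 9 in size, at -0.72, while those lay between -0.25 and 0.09.

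**Figure D1:**
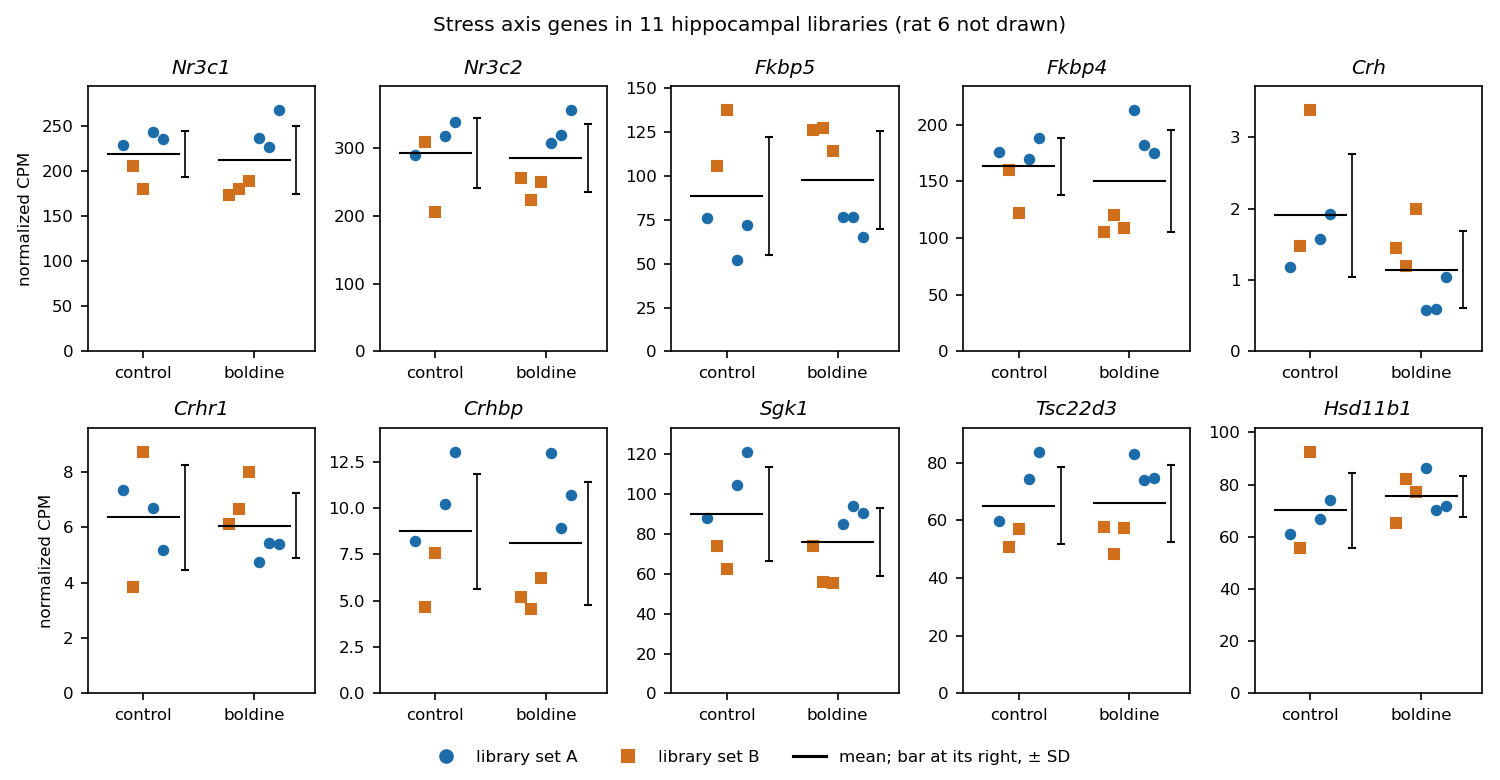
Normalized CPM of the 10 stress axis genes in blast-control (n = 5, rat 6 not drawn) and blast-boldine (n = 6) rats, 1 point per library, blue circles for library set A and orange squares for set B, with group means and SD. Crh is the gene whose blast-boldine points lie lowest relative to the blast-controls, while for Fkbp5, Nr3c1 and Fkbp4 the points divide by library set within both groups.

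The 2 receptors had values close to 0 in every fit shown. Nr3c1 (chr18:31271681-31359735 on mRatBN7.2, minus strand), the glucocorticoid receptor, lay between 181 and 243 CPM in the 5 blast-controls other than rat 6, with a median of 229, and between 173 and 268 in blast-boldine rats, with a median of 208. The ranges overlapped almost wholly. Means stood at 219 ± 25.5 (SD, n = 5) and 212 ± 37.3 (SD, n = 6). Its log2 fold change came to 0.01 (SE 0.155, adjusted p = 1.0 in edgeR). With the library set as a covariate and without rat 6 it was -0.02, with a 95% interval from -0.16 to 0.12, so these libraries leave room for a difference of 0.894 to 1.09-fold (exact permutation p = 0.63). Nr3c2 (chr19:30715648-31059885, minus strand), the mineralocorticoid receptor, lay between 206 and 339 CPM in the blast-controls (median 310) and between 223 and 357 in blast-boldine rats (median 282). Its log2 fold change was 0.09 (SE 0.236), and -0.01 with the set and without rat 6, with an interval from -0.22 to 0.20 (exact permutation p = 0.97). The sign of both receptors' values changed between these fits.

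The co-chaperones bind the receptor through HSP90 and set how readily it takes up hormone. FKBP51, the product of Fkbp5, lowers the affinity of the receptor for hormone and is itself induced by glucocorticoids, and FKBP52, the product of Fkbp4, replaces it when hormone binds and helps carry the receptor to the nucleus. Fkbp5 (chr20:6457207-6541835, minus strand) ranged from 51.9 to 138 CPM in the 5 blast-controls, with a median of 75.9, and from 65.4 to 127 in blast-boldine rats, with a median of 95.5. The spread within each group followed the library sets, and the groups overlapped. Its log2 fold change was -0.01 (SE 0.305), and 0.07 with the set and without rat 6 (SE 0.105), with an interval from -0.16 to 0.30 (exact permutation p = 0.505). The SE of Fkbp5 was smaller with the covariate. Fkbp4 (chr4:161703379-161711833, minus strand) ranged from 122 to 188 CPM in the blast-controls (median 170) and from 106 to 213 in blast-boldine rats (median 147). The groups differed by -0.11 on the log2 scale in edgeR on 12 libraries (SE 0.196). The exact permutation within the sets, without rat 6, gave a difference of -0.12 in mean log2 CPM (p = 0.34). In set B all 3 blast-boldine libraries were below both blast-controls, by 0.32 in mean log2 CPM, and in set A they were above in mean by 0.08.

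Of the stress axis genes examined, Crh, the releasing hormone itself, had the log2 fold change of largest size, at -0.72 in edgeR on all libraries. Crh did not pass an unadjusted p under 0.05 in that fit, so no difference between the groups was called. It is encoded at chr2:102143055-102144919 (minus strand), and was counted 12 to 54 times per library outside rat 6. Blast-controls 1, 4, 5, 7 and 9 held 1.19, 1.48, 3.38, 1.57 and 1.92 CPM, and rat 6 held no count. Blast-boldine rats 12, 17, 19, 20, 32 and 35 held 1.44, 1.19, 2.0, 0.586, 0.597 and 1.04 CPM. The 3 lowest libraries of the 11 were the 3 blast-boldine libraries of set A. Of the 6 blast-boldine libraries, 5 lay below the blast-control median of 1.57 CPM, but blast-boldine rat 19 lay above 4 of the 5 blast-controls. Such a division was not particular to Crh. For Crhr1 also 5 of the 6 lay below the blast-control median, and for Fkbp5 and Hsd11b1 5 of the 6 lay above it. The means were 1.91 ± 0.863 CPM (SD, n = 5) and 1.14 ± 0.538 (SD, n = 6).

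On all 12 libraries the log2 fold change of Crh was -0.72 (SE 0.357, 95% interval -1.49 to 0.05, adjusted p = 1.0 in edgeR), which did not pass unadjusted either. Without rat 6 it was -0.73 and again did not pass. With the library set as a covariate and without rat 6 it was -0.85 (SE 0.271, interval -1.44 to -0.27, adjusted p = 0.898 in edgeR), and Crh was then the only 1 of the 10 genes with an unadjusted p under 0.05, where 5.35% of all genes passed. DESeq2 with the same covariate gave -0.86 (adjusted p = 0.633), and Crh was again under 0.05 unadjusted, as were 4.69% of all genes. It was under 0.05 also with the set and rat 6 both in the model (-0.84, 3.85% of all genes) and, without the set, under both other scalings tried, RLE (-0.74) and upper quartile (-0.74), where 1.09% of all genes passed in each. The value rested in part on blast-control rat 5, the highest library, without which it was -0.44 and did not pass, and it passed without blast-control rat 1 (-0.87) or blast-boldine rat 19 (-0.95). The sign was negative in each of these fits. In bulk tissue, fewer cells that make a transcript and less of it per cell cannot be told apart.

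Within set A every blast-boldine library was below every blast-control, an arrangement that 4.21% of all genes showed in the same direction, and the mean log2 CPM was lower by 0.997. Within set B, where rat 6 leaves 2 blast-controls, it was lower by 0.53, with 2 of 3 blast-boldine libraries below both. Summed over set A, 107 Crh counts in blast-controls stood for 1.40 CPM (exact 95% Poisson interval 1.14 to 1.69) and 47 in blast-boldine rats for 0.734 CPM (0.539 to 0.976). Over set B, 48 counts stood for 2.41 CPM (1.78 to 3.20) and 63 for 1.56 CPM (1.2 to 2.0). These intervals cover counting error only and not the spread between animals. An exact two-sided permutation of the mean log2 CPM gave a difference of -0.04 and p = 0.970 over 924 assignments of all 12 libraries, where the value of rat 6 comes from the prior count alone. The exact test gave p = 0.0887 over 462 assignments of the 11 libraries, and p = 0.03 over 200 assignments within the sets, where 6.03% of all genes had p under 0.05 (adjusted p = 0.719, smallest possible p 0.005).

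**Figure D2:**
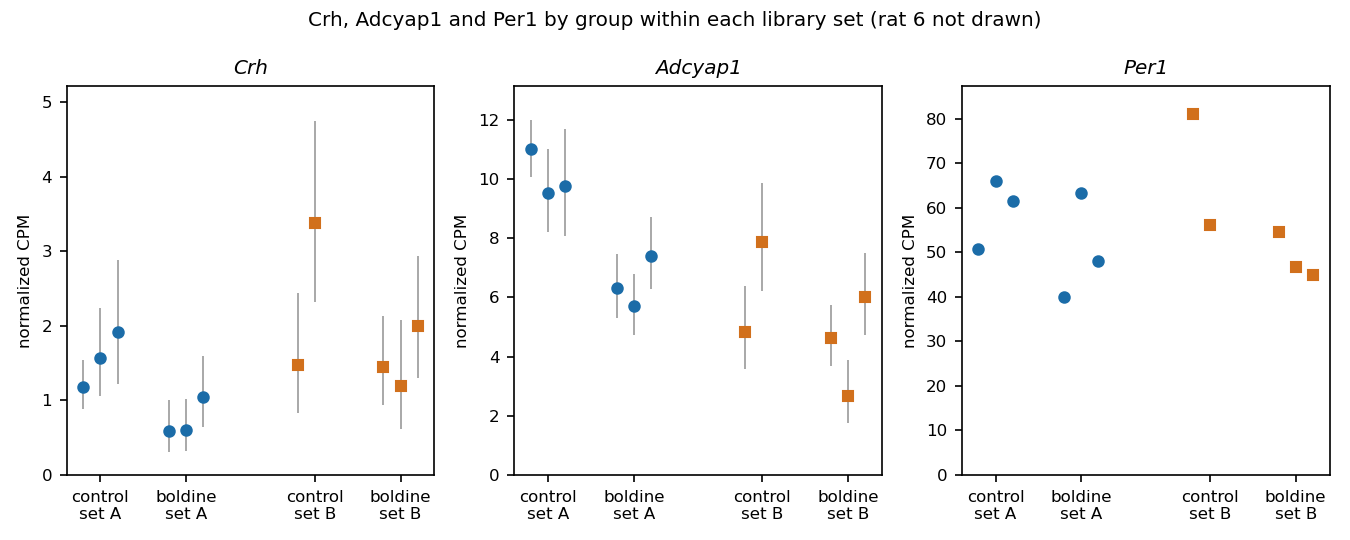
Normalized CPM of Crh, Adcyap1 and Per1 in each library by group and library set (rat 6 not drawn), with grey bars for exact 95% Poisson intervals of the count for Crh and Adcyap1. In set A all 3 blast-boldine points of Crh and of Adcyap1 lie under all 3 blast-control points, and in set B the groups overlap for both.

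For the receptor and the binding protein of CRH the values lay near 0. Crhr1 (chr10:89040203-89083481, plus strand), the main CRH receptor of the forebrain, lay between 3.85 and 8.70 CPM in the 5 blast-controls (median 6.71) and between 4.74 and 8.0 in blast-boldine rats (median 5.77). The value was -0.07 on the log2 scale in edgeR on 12 libraries (SE 0.225). The exact permutation within the sets, without rat 6, gave a difference of -0.03 in mean log2 CPM (p = 0.915). The direction differed between set A (-0.30 in mean log2 CPM) and set B (0.25). Crhbp (chr2:26692403-26704710, minus strand), which encodes a secreted protein that binds CRH and keeps it from its receptors, lay between 4.64 and 13.0 CPM in the blast-controls (median 8.21) and between 4.56 and 12.9 in blast-boldine rats (median 7.57). Its log2 fold change was -0.09 (SE 0.313), and -0.04 with the set and without rat 6 (interval -0.41 to 0.32, exact permutation p = 0.755). The interval of Crh in that fit, -1.44 to -0.27, overlaps those of both, and the difference between the genes was not tested.

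Of the glucocorticoid-induced genes, Sgk1 (chr1:22980258-22988097, minus strand) encodes a kinase that regulates ion channels and transporters. It lay between 62.4 and 121 CPM in the 5 blast-controls, with a median of 87.9, and between 55.5 and 94.1 in blast-boldine rats, with a median of 79.5. The log2 fold change was -0.17 (SE 0.242), and -0.19 with the set and without rat 6 (SE 0.101, interval -0.40 to 0.03, exact permutation p = 0.145). After Crh it had the smallest p of the 10 genes in that fit, and its mean was lower in blast-boldine rats in both sets, by 0.22 and 0.14 in log2 CPM. Tsc22d3 (chrX:104217898-104221523, minus strand), which encodes GILZ, an anti-inflammatory leucine zipper protein, lay between 50.8 and 83.6 CPM in the blast-controls (median 59.9) and between 48.4 and 82.9 in blast-boldine rats (median 65.9). Its log2 fold change was 0.09 (SE 0.253), and 0.06 with the set and without rat 6 (interval -0.14 to 0.25, exact permutation p = 0.585). The 3 induced genes thus had values of both signs, all with intervals that include 0.

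Hsd11b1 (chr13:104748831-104774809, minus strand) encodes the enzyme that regenerates active corticosterone from its inert keto form inside cells. It lay at 55.9 to 92.5 CPM in the 5 blast-controls (median 66.7) and 65.3 to 86.2 in blast-boldine rats (median 74.6). In rat 6 its 24 counts stood for 380 CPM. In edgeR the log2 fold change was -0.25 with that library (SE 0.363) and 0.10 without it (SE 0.138), and with the set and without it also 0.10 (SE 0.123, exact permutation p = 0.485). With that library kept, DESeq2 gave -0.42, limma-voom gave 0.087 and edgeR with the set gave 0.00021, so the sign also differed between fits on the same 12 libraries.

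**Figure D3:**
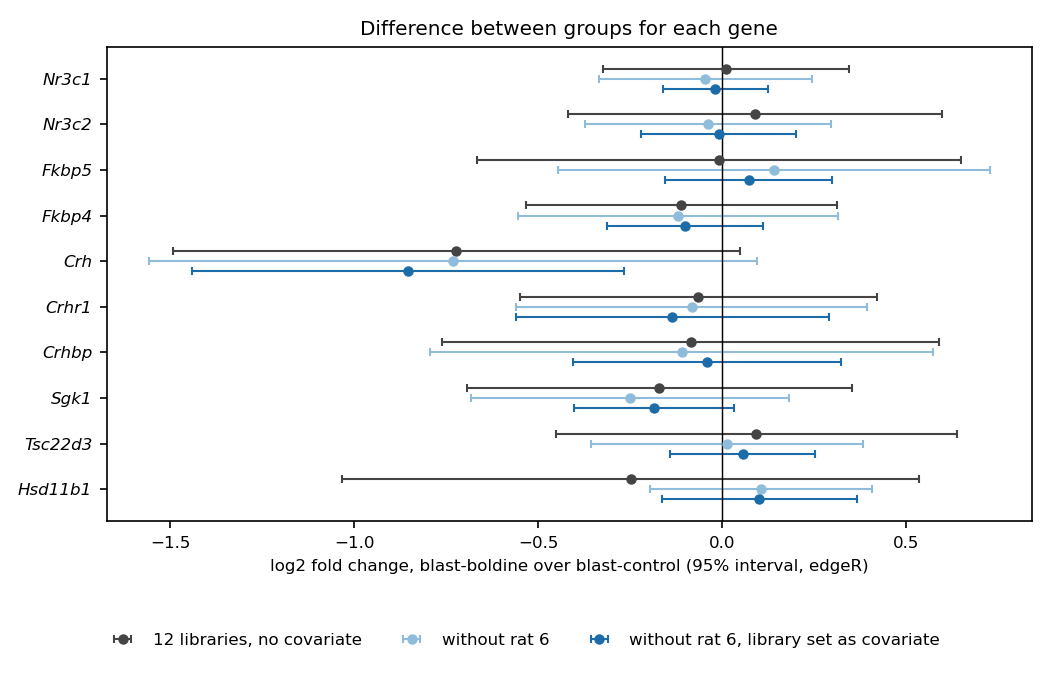
Log2 fold change of each gene, blast-boldine over blast-control, with 95% intervals from edgeR on 12 libraries (grey), without rat 6 (light blue), and without rat 6 with the library set as a covariate (dark blue). Crh under the library set covariate is the only interval that does not reach 0, and the intervals of the other genes narrow when the set is in the model.

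Levels were compared between genes per kilobase of exon, as CPM per kb over the 11 libraries. Fkbp4 was highest at 54.9, followed by Nr3c2 at 49.2, Hsd11b1 at 47.7, Nr3c1 at 34.0, Tsc22d3 at 33.7, Sgk1 at 29.1 and Fkbp5 at 26.9, and these 7 had ranges that overlapped from each to the next. The CRH system lay lower, with Crhbp at 5.12, Crhr1 at 2.4 and Crh at 1.25 CPM per kb. The step from Fkbp5 to Crhbp was the only one at which the ranges did not overlap. Of all genes tested, 8.30% had a lower level per kb than Crh, and 85.1% a lower one than Fkbp4. In every one of the 11 libraries Hsd11b1 was above Nr3c1, Crhbp above Crhr1 and Crhr1 above Crh, whereas Nr3c1 was above Tsc22d3 in 6 of them.

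**Figure D4:**
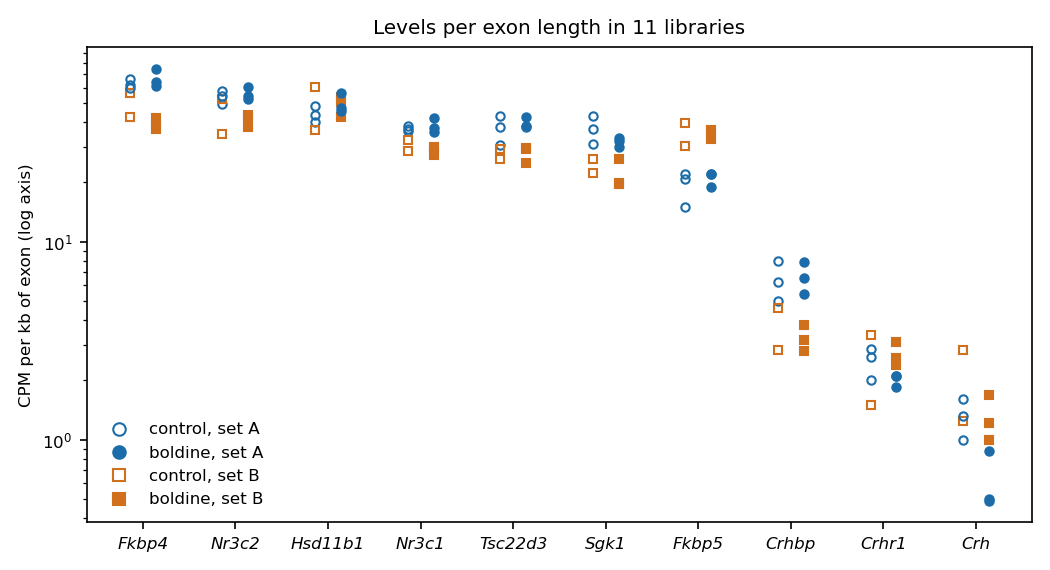
Level of each gene in CPM per kb of exon, on a log axis, in 11 libraries, open symbols for blast-control and filled for blast-boldine, circles for set A and squares for set B. The 7 genes of receptor, co-chaperone, target and enzyme lie together, and the 3 genes of the CRH system lie below them.

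Depth cancels out of a ratio within a library, but counting error does not. Nr3c2 to Nr3c1 per kb, the balance of the high to the low affinity receptor, was 1.44 ± 0.156 (SD, n = 5) in blast-controls and 1.45 ± 0.0945 (SD, n = 6) in blast-boldine rats, with all 11 libraries between 1.23 and 1.63. The mineralocorticoid receptor transcript was the more abundant of the pair in each of them. Fkbp5 to Fkbp4 lay between 0.250 and 0.353 in set A and between 0.540 and 0.978 in set B, whichever group the rat was in. Crhbp to Crh was 5.06, 4.75 and 4.96 in blast-controls 1, 7 and 9 and 16.1, 10.9 and 7.48 in blast-boldine rats 20, 32 and 35. In set B it was 2.29 and 1.64 in the 2 blast-controls and 2.63, 2.80 and 2.28 in the 3 blast-boldine rats. In 5 of the 6 blast-boldine libraries the ratio was above all blast-controls of the same set, and rat 19 lay just under blast-control rat 4. Crh is the divisor, so the ratio repeats the Crh values and is no separate result. It rests on 13 Crh counts each in rats 20 and 32. The share of all genes with such an arrangement was not worked out. No test of the ratio was made.

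Division by library set was common among all genes, these 10 included. In 6 of the 10 genes the ranges of the 6 libraries of set A and the 5 of set B were apart, as they were in 48.8% of all genes. Fkbp5 was higher in set B, at 122 ± 12.4 CPM (SD, n = 5) against 69.7 ± 9.72 (SD, n = 6), and it was the only one of the 6 in that direction. Of all genes with ranges apart, 2975 were higher in set A and 3134 in set B. Higher in set A were Nr3c1, at 240 ± 14.9 against 186 ± 12.4 CPM, Fkbp4, at 184 ± 15.6 against 123 ± 21.8, Crhbp, at 10.7 ± 2.0 against 5.64 ± 1.27, Sgk1, at 97.2 ± 13.5 against 64.4 ± 9.19, and Tsc22d3, at 74.9 ± 8.59 against 54.3 ± 4.35. Fkbp5 thus went against Sgk1 and Tsc22d3, its fellow glucocorticoid-induced genes, between the sets. Each set holds 3 libraries of each group, but without rat 6 set B holds 2 blast-controls and 3 blast-boldine rats. The part of the sets in any single value was not tested beyond the fits with the set as a covariate.

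**Figure D5:**
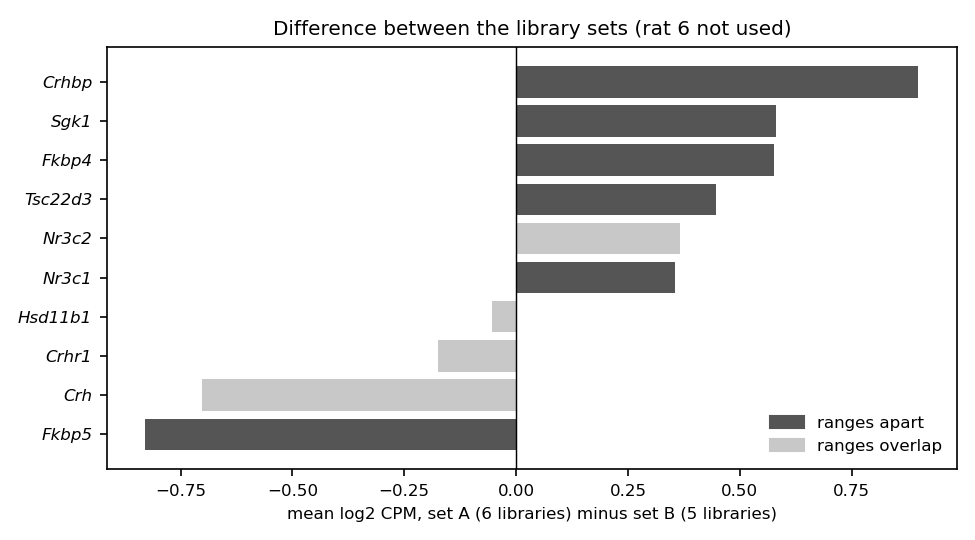
Difference in mean log2 CPM between library set A (6 libraries) and set B (5 libraries, without rat 6) for each gene, dark bars where the ranges of the sets do not overlap and light bars where they do. Fkbp5, at -0.83, and Crhbp, at 0.90, lie at the ends, and no test was made because the sets were picked from the data.

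Across the 6 rats of set A, 4 pairs of genes were compared by correlation of log2 CPM. Fkbp5 with Tsc22d3, Fkbp5 with Sgk1, Sgk1 with Tsc22d3 and Crh with Crhbp gave Pearson r of -0.13, -0.38, 0.39 and 0.14 and Spearman rho of -0.26, -0.37, 0.43 and 0.14. All 8 adjusted p were 0.803 (exact permutation test, two-sided, 720 orders, Benjamini-Hochberg). Without the 2 rats farthest from the median of the first gene, r became -0.54, -0.91, -0.22 and 0.65, so these values rest on few rats. As a description over the 11 libraries, with treatment and set removed, the 5 genes whose log2 CPM followed Fkbp5 most closely were Ak1 (r = 0.93), Dnttip1 (0.92), Rpp40 (0.92), RGD1310852 (0.91) and Sh3bp5 (0.91), picked out of 12528. The receptors ran the other way, at -0.68 for Nr3c1 and -0.62 for Nr3c2. The 25 tested genes of the list of glucocorticoid-induced genes had a median r of -0.07 with Fkbp5, against 0.00 over all genes, and 10 of the 25 were above 0. The points share libraries and depth, and no p is given for these values.

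The wider pathway was read from 6 lists with 98 distinct genes in the table, of which 78 were tested. At an unadjusted p under 0.05 edgeR called 4 of the 78, or 5.13%, where 1.07% of all genes passed, and called 0 at an adjusted p under 0.05. Lower in blast-boldine rats were Adcyap1, Per1 and Cyp11b1, and higher was Akr1c14. Without rat 6 and with the set as a covariate it was 6 of 80, or 7.5%, where 5.35% of all genes passed, with Arl4d, which was lower, among those added. The count on 12 libraries was 2 without blast-control rat 7 or 9 or blast-boldine rat 12 or 35, and 1 without blast-boldine rat 17. The genes of these lists were chosen with earlier results of the same libraries known, and nothing is read from the shares beyond their values.

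Among the genes of CRH, urocortin, vasopressin and melanocortin signalling, 1 of 9 tested was called, and it was lower. Adcyap1 (chr9:113104666-113109863, minus strand) encodes PACAP, a peptide transmitter of stress circuits that acts on Crh neurons of the hypothalamus. Blast-controls 1, 4, 5, 7 and 9 held 11, 4.84, 7.88, 9.53 and 9.76 CPM, and blast-boldine rats 12, 17, 19, 20, 32 and 35 held 4.62, 2.68, 6.0, 6.31, 5.69 and 7.41. As with Crh, all 3 blast-boldine libraries of set A lay under the 3 blast-controls, and in set B blast-control rat 4 fell within the range of the blast-boldine rats. The log2 fold change of Adcyap1 was -0.64 (SE 0.267, adjusted p = 1.0 in edgeR), and -0.59 with the set and without rat 6 (SE 0.183, adjusted p = 0.898). The exact permutation p within the sets, without rat 6, was 0.03 (adjusted p = 0.719), where 6.03% of all genes had p under 0.05. On all 12 libraries the exact permutation gave a difference of 0.36 in mean log2 CPM and p = 0.983. There the value of rat 6, with 0 counts of Adcyap1, comes from the prior count alone. The most abundant genes of the list, Pam, an enzyme that amidates peptide hormones, and Adcyap1r1, the PACAP receptor, gave -0.03 and -0.11 in that fit. Ucn was at or under 3 counts in each library, and Avp lay between 0.0992 and 2.21 CPM in the 11 libraries. Avp was under the filter on 12 libraries and, with the set and without rat 6, was tested at 0.80 (SE 0.447, adjusted p = 0.898 in edgeR), the largest value of the list in that fit.

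Of 25 tested glucocorticoid-induced genes outside the members, 1 was called, which was lower, and the median log2 fold change was -0.03, against 0.00 over all genes. That gene was Per1 (chr10:53805535-53814431, plus strand), a clock component that glucocorticoids induce quickly. It held between 50.9 and 81.2 CPM in the 5 blast-controls (median 61.5) and between 40.1 and 63.3 in the blast-boldine rats, at -0.35 on the log2 scale (SE 0.153, adjusted p = 1.0 in edgeR). With the set and without rat 6 it was also -0.35 (adjusted p = 0.898 in edgeR, exact permutation p = 0.04 within the sets), and its mean was lower in both sets, by 0.27 and 0.47 in log2 CPM. Arl4d, a small GTPase gene, was at -0.26 (adjusted p = 0.898) in the fit with the set, and Klf9 and Rhob, the most abundant genes of the list, were both at -0.06.

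In steroid access and metabolism, 1 of 7 tested genes was higher and 1 lower. Akr1c14 (chr17:66156286-66173277, minus strand), a hydroxysteroid dehydrogenase gene, held 1.19 ± 0.350 CPM (SD, n = 5) in blast-controls and 2.60 ± 0.865 (SD, n = 6) in blast-boldine rats, or 1.1 on the log2 scale (SE 0.301, adjusted p = 1.0 in edgeR). Cyp11b1 (chr7:106772599-106779278, minus strand), the gene of the last enzyme of corticosterone synthesis in the adrenal, held 1.26 ± 0.810 and 0.647 ± 0.435 CPM. These came from 4 to 59 counts a library outside rat 6, which held 0. On 12 libraries Cyp11b1 was at -0.99 (SE 0.457, adjusted p = 1.0 in edgeR). Without rat 6 it was no longer under 0.05 unadjusted, and with the set as well it was again, at -1.18. The exact permutation p within the sets was 0.155, against 0.015 for Akr1c14 (adjusted p = 0.719). Cyp11b1 and Akr1c14 have close relatives in the rat genome, and how far reads were shared with those was not measured here. Abcb1a, the blood-brain barrier transporter that exports steroids, and Srd5a1, a steroid reductase gene, gave 0.11 and -0.11 with the set and without rat 6.

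None of the 16 tested genes of the receptor chaperone cycle, the 11 of receptor coregulators or the 10 SGK1 substrates and neighbours was called on 12 libraries. The values of the abundant chaperones rested on the library of rat 6. Hsp90ab1 was at -1.24 with it (1182 counts in that library) and at 0.01 without it and with the set, and Hsp90aa1 at -0.93 (563 counts) and 0.13. The other abundant genes of these lists had small values without rat 6 and with the set, with Ncor1 at 0.02, Smarca4 at -0.06, Nedd4 at 0.08 and Ndrg2 at -0.14.

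Cell type markers were summed in each library to set beside these values. The 10 markers of hippocampal principal neurons summed to 2069 to 3427 CPM in the 5 blast-controls and 2335 to 2723 in blast-boldine rats, so these transcripts were counted in all 11 libraries. Whether they came from the hippocampus alone was not tested. The 8 interneuron markers, of the cell class that makes Crh in the hippocampus, summed to 455 to 651 and 472 to 648 CPM, and 0 of the 8 passed an unadjusted p under 0.05 in edgeR on 12 libraries or with the set and without rat 6. The 7 hypothalamic markers summed to 1.64 to 4.42 and 2.77 to 8.76 CPM, of which Oxt, Sim1 and Otp were at 0 in some libraries, and Pmch, a hypothalamic peptide gene, was higher in blast-boldine rats at 1.3 on the log2 scale, which was under 0.05 unadjusted. The 6 cortical markers summed to 385 to 469 and 353 to 485 CPM, and in the fit with the set and without rat 6 they lay above 0 for 3 and below 0 for 3. In that fit single markers of 5 of the 10 lists were under 0.05 unadjusted, where 5.35% of all genes passed. Besides Pmch these were Tbr1 of the cortex at -0.45, Wfs1 of principal neurons at -0.28, Tmem119 of microglia at -0.47 and Lum of meningeal fibroblasts at 0.77. In that fit markers lay below 0 in 6 of 6 for microglia, 6 of 6 for astrocytes and 7 of 8 for oligodendrocytes. They lay above 0 in 5 of 5 for meningeal fibroblasts and 5 of 5 for choroid plexus, and the median over all genes was -0.0082. These counts take in values near 0, such as Mog of oligodendrocytes at -0.00021, Aqp4 of astrocytes at -0.0018 and Dcn of meningeal fibroblasts at 0.00037. On 12 libraries some signs turned, with Mog at 0.011, Aqp4 at 0.013 and Dcn at -0.015. The microglial markers stayed below 0 there and the choroid plexus markers above it. The part of these tissues and cells in the Crh and Adcyap1 values was not tested. Choroid plexus markers ranged from 12.8 to 1044 CPM in blast-controls and from 7.77 to 1079 in blast-boldine rats, with Kcnj13 and Otx2 at 0 in some libraries, and this spread lay within both groups.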

How the data were processed

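Hippocampal total RNA of 12 blast-exposed rats was sequenced, 1 library a rat, the rat being the unit of replication. The authors trimmed reads and removed duplicates, aligned them to mRatBN7.2 with STAR 2.7.11b and counted them on exons by gene name and strand with featureCounts (Subread 2.0.1). The deposited values are these raw counts. Totals were 74008 to 40850106. Groups came from the sample labels. Genes were tested with edgeR 4.0.16 in R 4.3.3 (quasi-likelihood, TMM, filterByExpr with minimum 10 counts, treatment only, 12 libraries, two-sided, Benjamini-Hochberg over 12325 genes). The study's methods name DESeq2, which was run as an alternative (1.42.0), as was limma-voom (3.58.1). CPM are counts scaled to 1000000 of the TMM-adjusted total, with a prior count of 2 before the log2. Intervals are 95%. Exact permutation tests and counting intervals used scipy 1.17.1. The code was tested on simulated data.

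The 10 genes, the lists and the split into library sets were chosen with earlier results of these data known. Genes named are the 10 members, genes of the pathway lists under an unadjusted p of 0.05 in edgeR on 12 libraries or with the library set and without rat 6, the 2 most abundant of each list, the 5 most like Fkbp5, and markers where a sum is given. Ucn and Avp were named after their values were seen, and 1 gene that the rule takes is not reported here.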

Additional observations from a re-analysis of the deposited data

Results flagged for a closer look

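Hsd11b1 in the library of blast-control rat 6 stood far from the other blast-controls, at 380 CPM from 24 counts, where the next highest of the group held 92.5 CPM. The gap was 0.887 of the range of the 6 libraries, above the critical value of Dixon's test for 6 values at 95%. In all, 20 groups of 6 values were examined, of which chance flags about 1 in 20. Whether the difference belongs to the depth of that library, 74008 counts, was not tested.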

How the results depend on the processing

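No gene, member or not, passed an adjusted p of 0.05 under any of the fits run. The number of all genes under an unadjusted p of 0.05, 132 in edgeR on 12 libraries, was 254 without a filter on low counts, 85 in DESeq2, 474 with the library set as a covariate, 670 with the set and without rat 6, and 736 in DESeq2 with the set and without rat 6. With single rats left out it was 85 to 214, lowest without blast-boldine rat 12 or 17, 87 without blast-control rat 1 and highest without blast-control rat 5. The number of members was 1, in each case Crh, with RLE factors, upper quartile factors, the set, the set without rat 6, and DESeq2 with the set without rat 6, and 0 to 1 when leaving out 1 rat. Of the pathway genes 4 passed, against 7 in DESeq2 with the set and without rat 6, and 1 to 5 when leaving out 1 rat, lowest without blast-boldine rat 17.

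Log2 fold changes of 6 members turned sign, and the cause was not tested. Nr3c1 was at -0.0022 with RLE, -0.0023 with the set, -0.013 with upper quartile factors, -0.017 in DESeq2, -0.038 in limma-voom, -0.019 with the set and without rat 6 and -0.016 in DESeq2 with both. Nr3c2 was at -0.011 with the set and without rat 6 and -0.0094 in DESeq2 with both. Fkbp5 was at 0.15 in limma-voom, 0.042 with the set, 0.072 with the set and without rat 6 and 0.073 in DESeq2 with both. Hsd11b1, at -0.25 in edgeR and -0.42 in DESeq2 on 12 libraries, was at 0.087 in limma-voom, 0.00021 with the set, 0.10 with the set and without rat 6 and 0.10 in DESeq2 with both. Leaving out single rats moved Nr3c1 from -0.057 to 0.064, Nr3c2 from -0.039 to 0.17, Fkbp5 from -0.17 to 0.18, Crhr1 from -0.19 to 0.062, Crhbp from -0.27 to 0.10 and Hsd11b1 from -0.40 to 0.10. Crh stayed between -0.95 and -0.44.

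In the permutation test, the differences of mean log2 CPM with rat 6 depend on the prior count for the members with 0 counts in that library, Crh, Crhr1, Crhbp and Tsc22d3. Without rat 6 the differences turned to -0.055 for Nr3c1, -0.037 for Nr3c2, 0.17 for Fkbp5, -0.040 for Crhr1, -0.13 for Crhbp, -0.24 for Sgk1 and 0.12 for Hsd11b1. Weighting the sets alike as well, they were -0.027, -0.0052, 0.079, -0.027, -0.056, -0.18 and 0.11. With a prior count of 0.5 in place of 2, Crh on 12 libraries turned to 0.23.

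No paired analysis was possible because the 2 groups share no rat numbers. At 12 to 54 counts of Crh a library, counting error alone is wide, and 1 library at 74008 counts carries no usable value for the CRH genes.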
